A study of Mus musculus with 7 samples.

Results

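The comparison set PC-3F, mouse cerebral pericytes transduced with viruses that carry Olig2, Sox10 and Nkx6-2, against pOPC, primary oligodendrocyte progenitor cells. Its members were the barcodes of these 2 libraries with 500 or more unique molecular identifiers (UMIs), 147 cells of PC-3F and 134 of pOPC, together 281 of the 1124 cells that the 7 libraries of the series hold. The question put to the data was which genes of the progenitor state reach the primary level in the converted pericytes, which are missing and which stand above it. The cells of these groups came from C57BL/6 mice, were labelled as brain tissue, and were captured in droplets on the ddSEQ system for 3′ RNA sequencing. Primary progenitors received no treatment and, like the converted cells, grew in OPC medium, whereas untransduced pericytes (PC, 290 cells) grew in pericyte medium. PC and pericytes given only Olig2 and Sox10 (PC-2F, 179 cells) are quoted for scale. The labels give no time after transduction and no selection or sort of the transduced cells. Each group was 1 library, so no comparison below could be tested, and each one sets 2 libraries side by side, in which culture, batch and cell state cannot be told apart.

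Oligodendrocyte progenitor cells are the dividing glia of the brain that give rise to myelinating oligodendrocytes. They depend on basic helix-loop-helix, SOX and homeobox transcription factors, respond to platelet-derived growth factor through the receptor encoded by Pdgfra, carry the NG2 proteoglycan encoded by Cspg4, and receive synaptic input through glutamate receptors. Pericytes are the mural cells that wrap brain capillaries, and they also make NG2, collagens and other matrix proteins.

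The libraries were alike in total and median depth but not in its spread. pOPC held 632652 UMIs with a median of 3958.5 per cell (525 to 20585), and PC-3F held 635075 UMIs with a median of 4124 (983 to 11420). The UMI counts were decoded from the deposited codes by a rule inferred from the values, so each level below rests on that inference. A level (CPM) is a gene's UMIs summed over the kept cells and scaled to the same library total. A gene with 0 UMIs may lie as high as 3 UMIs, which is 4.74 CPM in pOPC and 4.72 CPM in PC-3F. A fold written as at least is set against this floor of 3 UMIs and is not the bound of an interval. The exact 95% bound is a smaller fold, for example 1059 for Trf, given below as at least 1303. Brackets after levels and folds hold exact 95% intervals for counting error alone. No barcode was shared between the libraries. The label of pOPC was met by its markers: the 10 progenitor markers summed to 8447 CPM, the 10 mesenchymal markers to 3.16 CPM, and the microglial and endothelial markers to 0. The 10 neuronal markers summed to 572 CPM in pOPC and 89.8 CPM in PC-3F. PC-3F carried both programmes, with 3017 CPM of progenitor markers and 8889 CPM of mesenchymal markers, against 145 and 5061 CPM in PC.

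Of 96 genes listed as progenitor genes by role, 94 occurred in the files and 76 were measured, meaning that 1 of the 2 libraries had at least 10 UMIs and 20 CPM. The other 18, low in both, were Nkx6-1, Nkx6-2, Sox11, Hes5, Fgfr2, Fgfr3, Egfr, Notch1, Tnr, C1ql1, Emid1, Scn1a, Scn3a, Dpp6, Snap25, Luzp2, Neu4 and Susd5, and Cacng5 and Lhfpl3 were not analysed here. A gene was called above or below where its ratio was 2-fold or more and the interval of that ratio left out 1, missing if it was below with 3 UMIs or fewer in PC-3F, and at level if its whole interval lay within 2-fold. By this rule 17 of the 76 stood above pOPC, 13 were at level, 5 could not be resolved, 23 were below and 18 were missing. Over all 8784 measured genes 19.0% were higher, 20.5% at level, 38.7% unresolved and 21.8% lower. Here the lower genes include the missing ones, which were 4.78% of all. Below and missing together made up 41 of the 76 progenitor genes (53.9%), a larger share than in this background. Their shares of higher and at-level genes were similar to it. A gene could be measured through either library. Of 7384 genes measured in pOPC itself 24.4% were at level, 41.9% unresolved, 7.73% higher and 26.0% lower. That lower share includes the 5.69% missing. Of the 76 progenitor genes 70 were measured in pOPC. The others, Erbb3, Lpar1, S1pr3, Rgs16, Matn4 and Etv4, passed the minimum only through PC-3F, and all of them were called above. The similar share of higher genes therefore holds only against all measured genes. The median log2 ratio of the 76 genes was -1.40, beside -0.22 for all measured genes and -0.43 for those measured in pOPC. A scale set by trimmed means moved the median of all genes by 0.229 and the split from 1665 higher and 1918 lower to 1978 higher and 1459 lower, and on that scale the progenitor median was -1.17.

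**Figure D1:**
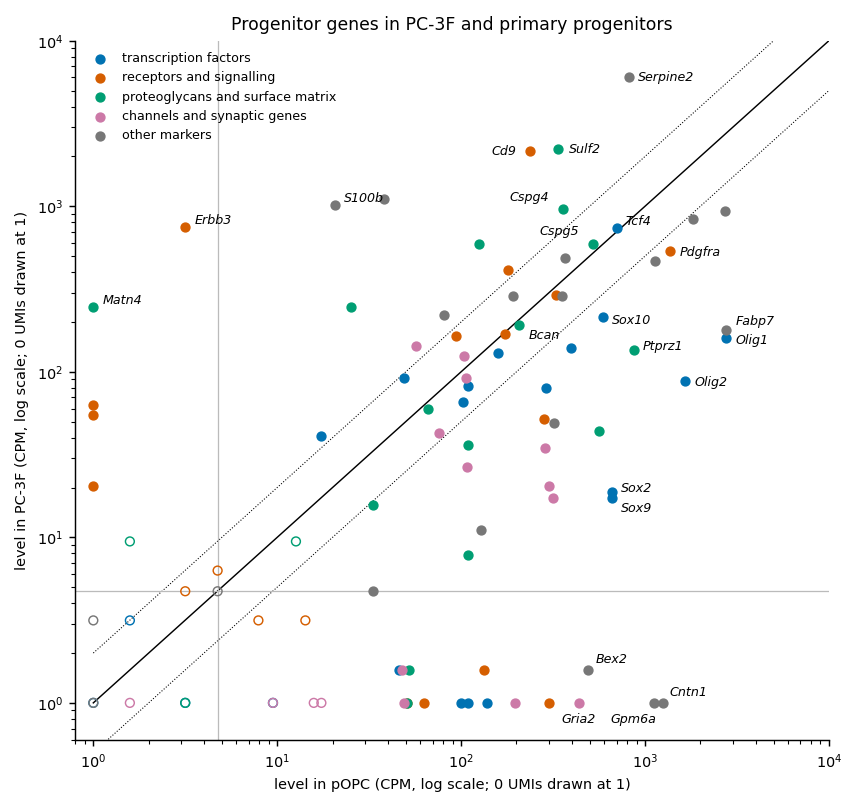
Level of each progenitor gene in pOPC (x axis) and in PC-3F (y axis), in CPM on log axes, coloured by role; open circles are genes below the minimum in both libraries, the solid line is equality, the dotted lines 2-fold, and the grey lines 3 UMIs. Genes lie on both sides of the line, from Erbb3 and Matn4 far above it to a row of genes with 0 UMIs in PC-3F along the bottom that includes Cntn1, Gpm6a and Gria2.

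Whether the donor library already held a gene differed between these classes. Of the 41 progenitor genes that were below or missing, 17 of 23 and 16 of 18 had 3 UMIs or fewer in PC. Of the 13 genes at level, 4 had 3 UMIs or fewer in PC (Cspg5, Bcan, Kcnj10 and Mmp15), and of the 17 above, 4 did (Erbb3, Matn4, S100b and Opcml). In 9 of the 17 above, the PC level was itself over the pOPC level. Over all measured genes, 171 of 1665 above, 20 of 1802 at level, 146 of 1498 below and 278 of 420 missing (66.2%) had 3 UMIs or fewer in PC, so a missing gene was mostly absent from PC in general.

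The factors delivered by virus come first. Olig2, the basic helix-loop-helix factor that specifies the lineage, was at 1657 CPM (1558 to 1759.9) in pOPC, 88.2 CPM (66.6 to 115) in PC-3F, 191 CPM in PC-2F and 0 in PC, which put PC-3F 18.8-fold lower (14.4 to 25.04). Sox10, the SOX factor that drives glial and myelin genes, was at 591 CPM in pOPC, 216 CPM in PC-3F, 251 CPM in PC-2F and 0 in PC, 2.74-fold lower (2.25 to 3.36) in PC-3F than in pOPC. Both were present in PC-3F and absent from the donor library, and neither reached the primary level. Nkx6-2, a homeobox factor, gave 1 UMI in pOPC and 2 in PC-3F. Reads at the 3′ end may miss a delivered coding sequence, so vector and endogenous transcripts cannot be told apart here, and the counts of Nkx6-2 check nothing.

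Most transcription factors of the progenitor were lower or missing. Of 17 measured, 7 were below, 4 missing, 3 at level, 2 unresolved and 1 above, with a median log2 ratio of -1.84. Olig2 and Sox10 are counted in the 17, in the 7 below and in the median. Over all genes 21.8% were lower or missing. In pOPC 16 of the 17 were measured, and Etv4 passed the minimum only through PC-3F. Olig1, the paralog of Olig2 in the same chromosomal region, was at 2768 CPM in pOPC and 159 CPM in PC-3F, 17.4-fold lower (14.2 to 21.5). Sox2, a factor of neural progenitors, was 34.97-fold lower (19.8 to 68.2) at 18.9 CPM, and Sox9, a SOX factor of glial specification, was 37.96-fold lower (20.998 to 76.6) at 17.3 CPM. Sox9 stood at 442 CPM in PC, so its PC-3F level was under both the primary cells and the donor. Sox6, which holds progenitors in the undifferentiated state, was 3.602-fold lower (2.63 to 5.01), and Tcf12, which encodes a partner of OLIG proteins, 2.86-fold lower (2.24 to 3.69). Nkx2-2, a homeobox gene of the oligodendrocyte lineage, had 69 UMIs in pOPC and 0 in PC-3F (at least 23.1-fold lower), and it was detected at 20.9 CPM in PC-2F. Sox3, a SOX factor of neural progenitors, was at least 21.1-fold lower. Sox8, a close relative of Sox10, had 1 UMI in PC-3F and was 29.1-fold lower (4.83 to 1189).

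A smaller group of transcription factors lay at the primary level. Tcf4, an E protein that pairs with OLIG factors, was at 702 CPM in pOPC, 737 CPM in PC-3F and 734 CPM in PC, a PC-3F to pOPC ratio of 1.05 (0.9202 to 1.198). Etv5, a target of growth factor signalling, had a ratio of 0.809 (0.597 to 1.09) and Sox4, a factor of immature neural cells, 0.751 (0.514 to 1.09). Sox5 and Etv1 could not be resolved, with ratios of 1.86 (1.19 to 2.98) and 0.644 (0.426 to 0.963). Etv4 was called above, at 11 UMIs in pOPC and 26 in PC-3F (2.35-fold higher, 1.12 to 5.28), but its log2 ratio turned to -1.07 when each cell was thinned to 1000 UMIs, where only a few UMIs were left.

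Receptors and signalling genes split in both directions. Of 15 measured, 6 were above, 2 at level, 1 unresolved, 2 below and 4 missing, and their log2 ratios ran from -8.57 to 7.57. The median was -0.03, and 0.20 with scaling by trimmed means, so it gives no direction. Over all genes 19.0% were higher and 21.8% lower or missing. Only 11 of the 15 were measured in pOPC. Erbb3, Lpar1, S1pr3 and Rgs16 passed the minimum only by being high in PC-3F. Pdgfra, the receptor gene that marks progenitors, was at 1374 CPM (1284 to 1468) in pOPC, 537 CPM (481 to 597) in PC-3F, 371 CPM in PC-2F and 88.2 CPM in PC. It was 2.56-fold lower (2.25 to 2.91) than in the primary cells, so PC-3F lay between the donor and the progenitor. Pdgfra kept its class in 12 of 15 alternatives. It was at level by share of cells and unresolved with UMIs capped at 9 per gene and cell. Erbb3, a neuregulin receptor gene used by Schwann cells and other glia, had 2 UMIs in pOPC and 475 in PC-3F (748 CPM) and 0 in PC. That is a ratio of 237 (65.1 to 1959). Its relative Erbb4 went the other way, with 32 UMIs in pOPC and 0 in PC-3F (at least 10.7-fold lower). Cd9, which encodes a tetraspanin of the glial surface, was 9.15-fold higher (7.72 to 10.9), and the fibroblast growth factor receptor gene Fgfr1 2.28-fold higher (1.82 to 2.87). Fgfr1 was at 382 CPM in PC, close to its 411 CPM in PC-3F.

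The lipid and G-protein signalling genes Lpar1, S1pr3 and Rgs16 had 0 UMIs in pOPC. Lpar1, a lysophosphatidic acid receptor gene, was at least 13.3-fold higher in PC-3F, S1pr3, a sphingosine phosphate receptor gene, at least 11.6-fold higher, and Rgs16, a regulator of G-protein signalling, at least 4.32-fold higher. Missing receptors and ligands were Ntrk2, the neurotrophin receptor gene (189 UMIs in pOPC, at least 63.2-fold lower), and the Notch ligand genes Dll1 (at least 13.4-fold lower) and Dll3 (1 UMI in PC-3F, 84.3-fold lower, 14.7 to 3369.7). The endothelin receptor gene Ednrb was 5.45-fold lower (3.74 to 8.15). The feedback inhibitors of receptor tyrosine kinase signalling Spry1 and Spry2 were at the primary level, with ratios of 0.978 (0.742 to 1.29) and 0.881 (0.719 to 1.08). Spry4, of the same family, could not be resolved (1.76, 1.26 to 2.46). Spry1 was at 4.64 CPM in PC, so its level in PC-3F (168 CPM) was not one that the donor library already had.

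**Figure D2:**
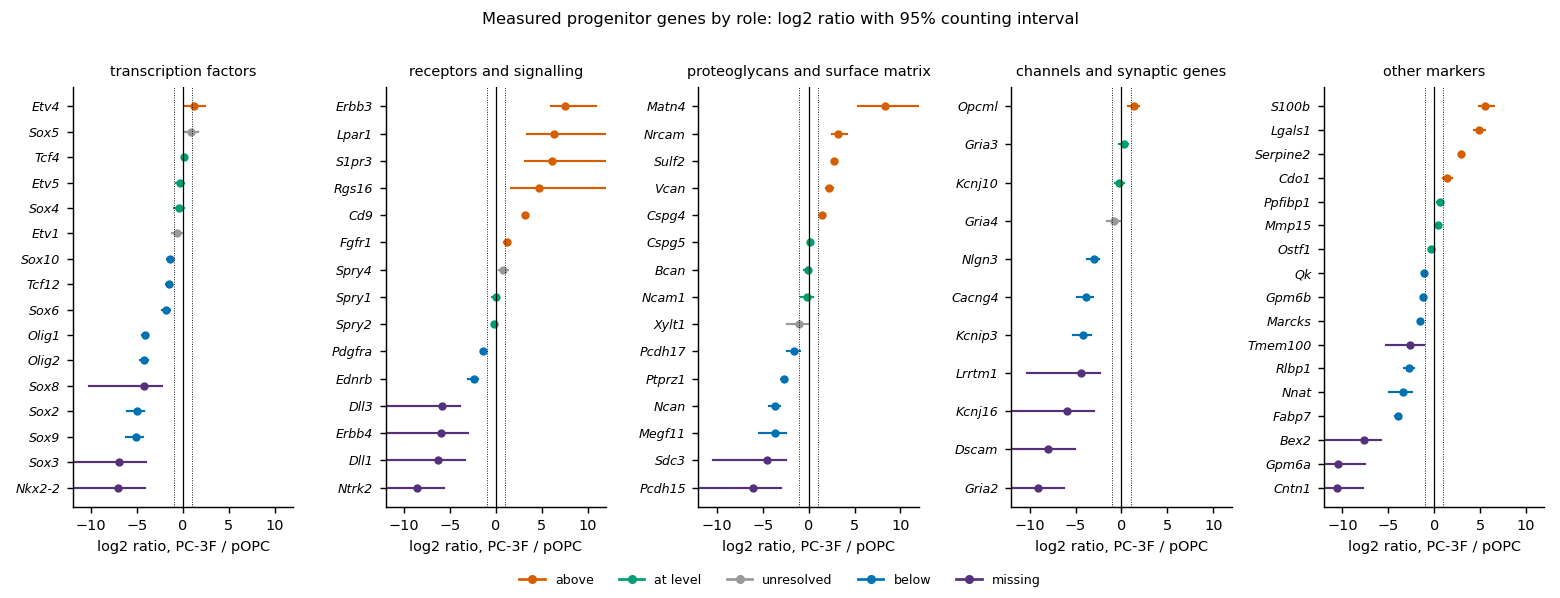
Log2 ratio of PC-3F to pOPC (points, 0.5 UMIs added per library) with the exact 95% counting interval (lines, cut at the panel edge where a library had 0 UMIs) for 74 of the 76 measured progenitor genes in 5 panels by role; dotted lines mark 2-fold. Transcription factors and channel genes lie mostly to the left, and receptors and proteoglycans spread to both sides.

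Proteoglycans and surface matrix genes included markers at the primary level, markers above it and markers far below it. Of 15 measured, 5 were above, 3 at level, 1 unresolved, 4 below and 2 missing, with a median log2 ratio of -0.15 that turned to 0.08 with scaling by trimmed means. Over all genes 19.0% were higher and 21.8% lower or missing. In pOPC 14 of the 15 were measured, and Matn4 passed the minimum only through PC-3F. Bcan, which encodes brevican, a proteoglycan of brain matrix, was at 207 CPM in pOPC, 192 CPM in PC-3F, 286 CPM in PC-2F and 0 in PC, a PC-3F to pOPC ratio of 0.928 (0.719 to 1.196). Cspg5, which encodes neuroglycan C, was at 525 CPM and 594 CPM in pOPC and PC-3F and at 0.774 CPM in PC, a ratio of 1.13 (0.973 to 1.31). These 2 neural proteoglycan genes were absent or nearly absent from the donor library and within 2-fold of the primary level in the converted one. Ncam1, a neural cell adhesion molecule gene, was also at level (0.901, 0.566 to 1.43) but had 59.6 CPM in PC.

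Cspg4, the NG2 gene, was at 360.4 CPM (315 to 410.3) in pOPC, 968 CPM (893 to 1048) in PC-3F, 675 CPM in PC-2F and 55.7 CPM in PC, and was therefore 2.69-fold higher (2.305 to 3.14) than in the primary cells. Sulf2, which encodes a heparan sulfate sulfatase, was 6.58-fold higher (5.69 to 7.64), the versican gene Vcan 4.72-fold higher (3.69 to 6.09) and the adhesion gene Nrcam 9.71-fold higher (5.796 to 17.4). Matn4, which encodes a matrilin of the extracellular matrix, had 0 UMIs in pOPC and in PC and 156 in PC-3F (at least 51.8-fold higher). Against these, the neurocan gene Ncan was at 559.5 CPM in pOPC and 44.1 CPM in PC-3F, 12.7-fold lower (8.63 to 19.4). Ptprz1, a receptor phosphatase and proteoglycan gene of progenitors, was 6.44-fold lower (5.13 to 8.18) at 135 CPM. Megf11 was 13.9-fold lower (5.66 to 44.01), Pcdh17 3.01-fold lower (1.85 to 5.06), and the protocadherin gene Pcdh15 at least 10.7-fold lower. The syndecan gene Sdc3 had 1 UMI in PC-3F (33.1-fold lower, 5.55 to 1348), and Xylt1, which encodes an enzyme that starts proteoglycan chains, could not be resolved (0.474, 0.199 to 1.05). The brain proteoglycans were therefore not at one common fraction of the primary level: Bcan and Cspg5 lay at it and Ncan and Ptprz1 below it.

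Channel and synaptic genes were the role with the lowest median, -3.42 (-3.20 with absent genes set at 3 UMIs). Of 12 measured, 4 were below, 4 missing, 2 at level, 1 unresolved and 1 above. All 12 were measured in pOPC, and of all genes measured there 26.0% were lower or missing. Gria2, the AMPA receptor subunit gene that limits calcium entry, had 277 UMIs in pOPC (438 CPM) and 0 in PC-3F, PC-2F and PC (at least 92.7-fold lower). Its paralog Gria3 was at level (1.19, 0.849 to 1.68), with 55.7 CPM in PC, and Gria4 could not be resolved (0.5604, 0.336 to 0.916). Dscam, a neural cell adhesion gene, was at least 41.5-fold lower, and the potassium channel gene Kcnj16 at least 10.4-fold lower. Kcnj10, the potassium channel gene whose product partners with that of Kcnj16, was at level, with 106 CPM in pOPC, 91.3 CPM in PC-3F and 0 in PC. The AMPA receptor auxiliary gene Cacng4 was 14.7-fold lower (8.38 to 28.1), the calcium sensor gene Kcnip3 18.3-fold lower (10.03 to 37.3) and the synaptic adhesion gene Nlgn3 8.304-fold lower (5.32 to 13.6). Lrrtm1, another synaptic adhesion gene, had 1 UMI in PC-3F (30.1-fold lower, 5.01 to 1229). Opcml, a cell adhesion gene, was 2.52-fold higher (1.69 to 3.81) over all cells, but at a log2 ratio of -0.01 in the 56 cells of PC-3F left when the 2 clusters with more mesenchymal than glial markers were taken out.

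Other progenitor markers included the genes furthest apart. Cntn1, which encodes the axonal and glial adhesion protein contactin 1, had 788 UMIs in pOPC (1246 CPM) and 0 in PC-3F (at least 264-fold lower), with 89.2 CPM in PC-2F. Gpm6a, a membrane glycoprotein gene of neural cells, had 707 UMIs against 0 (at least 237-fold lower), while its paralog Gpm6b was at 1129 CPM and 466 CPM, only 2.42-fold lower (2.11 to 2.78). Bex2 had 310 UMIs in pOPC and 1 in PC-3F. Fabp7, a fatty acid binding protein gene of radial glia and progenitors, was at 2772 CPM in pOPC and 178 CPM in PC-3F, 15.6-fold lower (12.9 to 19.02). Marcks and Qk, the second of which encodes an RNA-binding protein of glia, were 2.92-fold lower (2.66 to 3.21) and 2.18-fold lower (1.97 to 2.42). Qk kept its class in 9 of 15 alternatives and was at level by share of cells, where Marcks was at level too. Rlbp1 and Nnat were 6.57-fold lower (4.49 to 9.93) and 11.6-fold lower (5.39 to 29.8), and Tmem100 had 3 UMIs in PC-3F (7.03-fold lower, 2.098 to 36.8).

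Above the primary level stood Serpine2, a protease inhibitor gene that glia secrete, at 816 CPM in pOPC and 6019.8 CPM in PC-3F (7.38-fold higher, 6.73 to 8.11) against 75.8 CPM in PC. S100b, a calcium-binding protein gene of glia, was at 13 UMIs in pOPC and 644 in PC-3F (49.3-fold higher, 28.7 to 93.2) and at 0 in PC. Lgals1, the galectin 1 gene, was 29.2-fold higher (19.4 to 45.9), with 4901 CPM in PC, and Cdo1, which encodes a cysteine-degrading enzyme, was 2.72-fold higher (1.96 to 3.82). Mmp15, Ppfibp1 and Ostf1 were at level, and of these Mmp15 had 1.55 CPM in PC against 487 CPM in PC-3F. In GRCm38, the assembly also called mm10, Cntn1 lies on chromosome 15 from 92051165 to 92341967, Erbb3 on chromosome 10 from 128567523 to 128589652, Bcan on chromosome 3 from 87987531 to 88000230 and Cspg4 on chromosome 9 from 56865033 to 56899870.

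**Figure D3:**
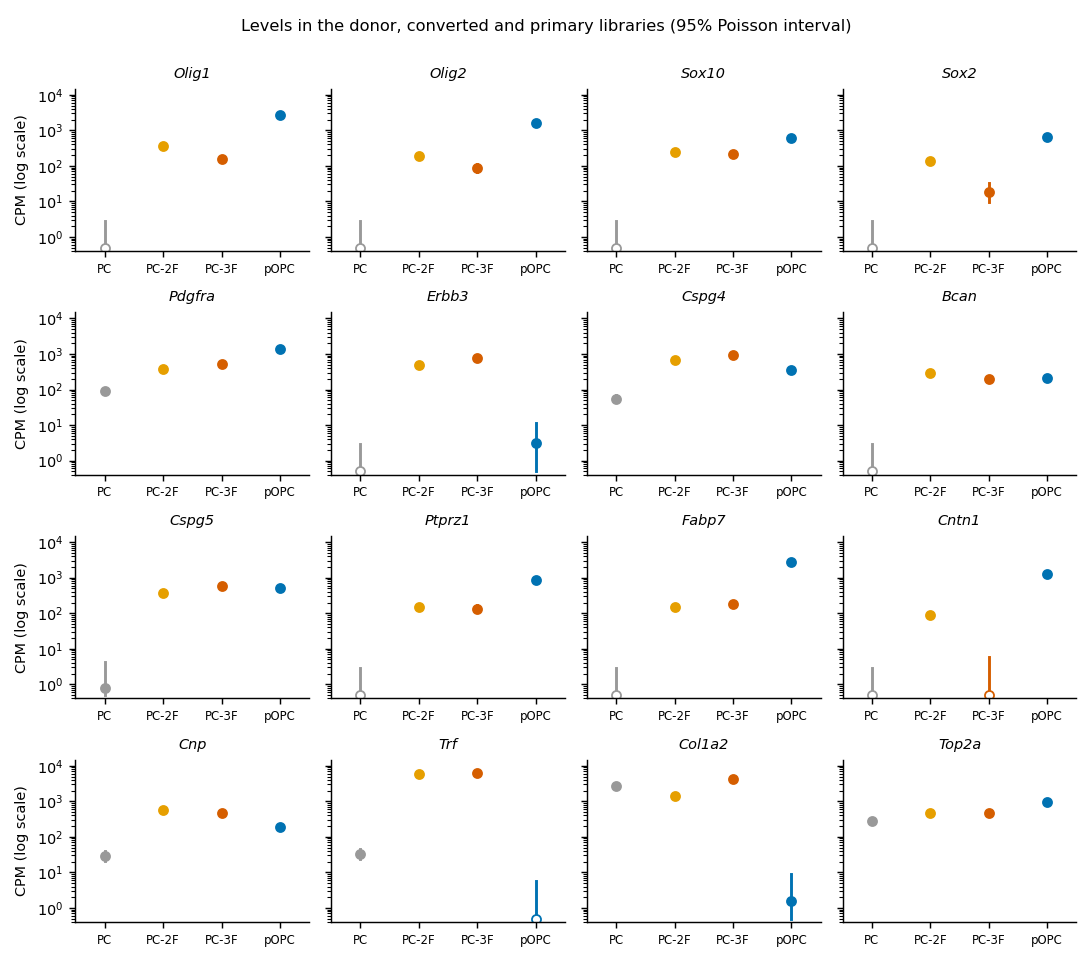
Level (CPM, log axis) of 16 genes in PC, PC-2F, PC-3F and pOPC; lines are exact 95% Poisson intervals, and open circles are 0 UMIs, drawn at the foot of the axis. Bcan and Cspg5 are at like heights in PC-3F and pOPC, Olig1, Olig2, Sox2, Fabp7 and Cntn1 are lower in PC-3F, and Erbb3, Cnp, Trf and Col1a2 are higher.

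The summed levels join cells with and without a UMI of a gene, and a cell without one may still express it. Olig2 had a UMI in 125 of 134 pOPC cells and 37 of 147 PC-3F cells (93.3% and 25.2%), against 0 of 290 PC cells, where the median depth was 3775 UMIs. With each cell of 1000 UMIs or more thinned to 1000 UMIs (116 cells of pOPC, 146 of PC-3F and 267 of PC, leaving out 18, 1 and 23), the expected shares were 75.1% in pOPC and 8.32% in PC-3F. Sox10 stood at 43.9% and 18.04% at that depth (79.9% and 44.2% unthinned), and 0 of 290 PC cells held it. Pdgfra was at 75.3%, 40.1% and 7.698% in pOPC, PC-3F and PC (89.6%, 80.3% and 23.1% unthinned). Cspg4 was seen in more PC-3F than pOPC cells, 59.3% against 28.2% (89.8% against 58.2% unthinned), with 5.65% in PC. Bcan was seen in 16.9% of pOPC and 15.7% of PC-3F cells (45.5% and 32.7% unthinned) and in 0 of 290 PC cells, and by share of cells or after thinning its ratio could not be resolved.

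Markers were found together in fewer PC-3F than pOPC cells where SOX10 or OLIG factor genes were involved. Olig2 and Sox10 were both seen in 103 of 134 pOPC cells and 20 of 147 PC-3F cells, Olig1 and Olig2 in 122 and 18, and Pdgfra and Sox10 in 102 and 51. Pdgfra and Cspg4 were both seen in 76 of 134 pOPC cells and 106 of 147 PC-3F cells, against 10 of 290 in PC. At 1000 UMIs per cell a pOPC cell showed a median of 18 of the 94 progenitor genes (quartiles 16 and 20.25), a PC-3F cell 12 (10 and 15) and a PC cell 5 (4 and 6). The lowest pOPC cell had 10 and the highest PC-3F cell 20, so the 2 distributions overlapped.

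**Figure D4:**
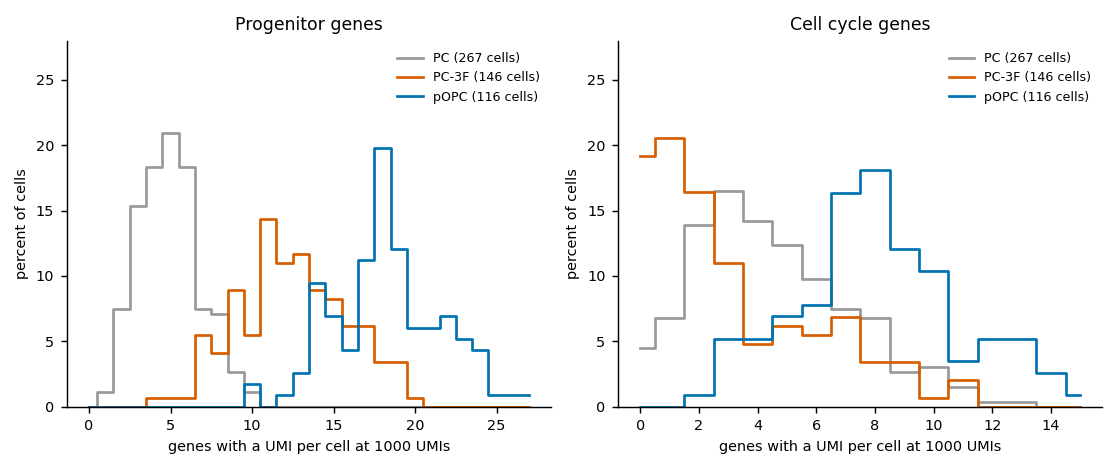
Percent of cells (y axis) by number of genes with a UMI per cell after 1 thinning to 1000 UMIs (x axis), for the 94 progenitor genes (left) and 35 cell cycle genes (right), in PC, PC-3F and pOPC. PC-3F, with a median of 12 progenitor genes, lies between PC (5) and pOPC (18), and for cell cycle genes its median of 2 is below PC (4) and pOPC (8).

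PC-3F was not uniform. Clustering it alone into 3 groups gave 29, 62 and 56 cells, and as the clusters were formed on the same cells their differences are a description. The first group (29 cells, 19.7%), the lowest in glial markers, had 10022 CPM of mesenchymal and 1104 CPM of glial markers. There Sox10 was at 19.6 CPM, Cspg5 at 39.2 CPM and Bcan at 0, while Pdgfra was at 399 CPM. The second (62 cells) combined 12615 CPM of mesenchymal with 5450 CPM of glial markers and held Pdgfra at 784 CPM, Bcan at 382 CPM and Ptprz1 at 258 CPM. In the third (56 cells, 3579 and 6373 CPM) Pdgfra was at 335 CPM, Bcan at 96.3 CPM and Fabp7 at 243 CPM. In none of the 3 did Olig1, Olig2, Sox2, Fabp7 or Ptprz1 come near pOPC, where they were at 2768 CPM, 1657 CPM, 661 CPM, 2772 CPM and 873 CPM: the highest cluster levels were 197 CPM, 110.1 CPM, 45.9 CPM, 243 CPM and 258 CPM.

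Without the first group, a setting chosen after the clusters were seen, 17 genes were above, 11 at level, 7 unresolved, 23 below and 18 missing. The second group, which held the most mesenchymal markers, stayed in. All 17 genes above and all 18 missing kept their class, Sox4 and Ppfibp1 moved from at level to unresolved, Qk from below to unresolved and Gria4 from unresolved to below. With the second group left out too, 56 cells remained, and 15 were above, 9 at level, 10 unresolved, 18 below and 22 missing. There Bcan was no longer at level but below, Sox10 was unresolved, and 14 of the 17 genes above and 17 of the 18 missing were still so.

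Many genes of later stages of the lineage stood above the primary progenitors. Of 12 measured regulators of committed progenitors and differentiation, 6 were above, 1 at level, 2 unresolved, 2 below and 1 missing (median log2 ratio 0.87). Over all genes 19.0% were higher. Only 9 of the 12 were measured in pOPC, and the others, Myrf among them, passed the minimum only by being high in PC-3F. Myrf, the transcription factor that turns on myelin genes, had 1 UMI in pOPC and 62 in PC-3F (61.8-fold higher, 10.7 to 2478). Gpr17, a receptor gene of committed progenitors, was at level (1.39, 0.972 to 1.99) and had 0 UMIs in PC. Zfp536, Sirt2 and Itpr2 were 3.46-fold higher (1.99 to 6.33), 2.29-fold higher (1.77 to 2.98) and 2.38-fold higher (1.51 to 3.85), and Cnksr3 and Frmd4a 9.46-fold higher (3.41 to 36.5) and 5.98-fold higher (3.22 to 12.1). Bcas1, a marker gene of newly formed oligodendrocytes, was 10.3-fold lower (6.65 to 16.8), the kinase gene Fyn 3.03-fold lower (2.49 to 3.696), and Zfp488, a co-regulator of OLIG2, at least 9.37-fold lower.

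Of 15 measured myelin and mature oligodendrocyte genes 12 were above, 1 at level, 2 unresolved and 0 below, with a median log2 ratio of 5.29 (3.18 with absent genes set at 3 UMIs). Over all genes 19.0% were higher, but only 7 of the 15 were measured in pOPC, and those that passed the minimum through PC-3F alone had to be high there. Mbp, the myelin basic protein gene, could not be resolved, with 13 UMIs in pOPC and 13 in PC-3F, a ratio of 0.996 (0.425 to 2.33). Mag and Mal, genes of myelin membrane proteins, had 0 UMIs in pOPC and were at least 8.63-fold higher and at least 16.6-fold higher, and the myelin enzyme gene Cnp was 2.39-fold higher (1.92 to 2.98). Gjc3, a glial connexin gene, was 106-fold higher (28.9 to 878), and Aspa, which encodes an enzyme of oligodendrocytes, at least 12.6-fold higher. Anln was at level (0.764, 0.563 to 1.03) over all cells but at 176 CPM, 189 CPM and 9.18 CPM in the 3 clusters of PC-3F described above, with a log2 ratio of -3.83 in the third alone. Qdpr was unresolved (0.589, 0.426 to 0.807). Cldn11, the claudin gene of myelin tight junctions, was 2.11-fold higher (1.45 to 3.12) by UMIs, but 10 cells held 70.8% of its UMIs in PC-3F and by share of cells its log2 ratio was -0.04. Fa2h was above with 3 and 14 UMIs (4.65-fold higher, 1.297 to 25.2), and at -0.33 after thinning.

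The members with the largest differences in this list are not confined to oligodendrocytes. Trf, the transferrin gene, had 0 UMIs in pOPC and 3925 in PC-3F (6180.4 CPM, at least 1303-fold higher). Apod, an apolipoprotein gene also made by fibroblasts, was at 3.16 CPM and 2089.5 CPM, and within PC-3F at 5344 CPM in the first cluster against 125 CPM and 2184 CPM in the others. Cryab and Gsn were at 359.8 CPM and 2735 CPM in PC itself. Schwann and neural crest genes overlapped this list and the receptors, and 7 of 12 were above, 1 at level, 3 below and 1 missing. Over all genes 19.0% were higher and 21.8% lower or missing. Only 7 of the 12 were measured in pOPC, and the others passed the minimum only by being high in PC-3F. Gap43, a growth-associated gene of axons and immature Schwann cells, was missing, with 247 UMIs in pOPC and 1 in PC-3F (248-fold lower, 44.1 to 9832).

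**Figure D5:**
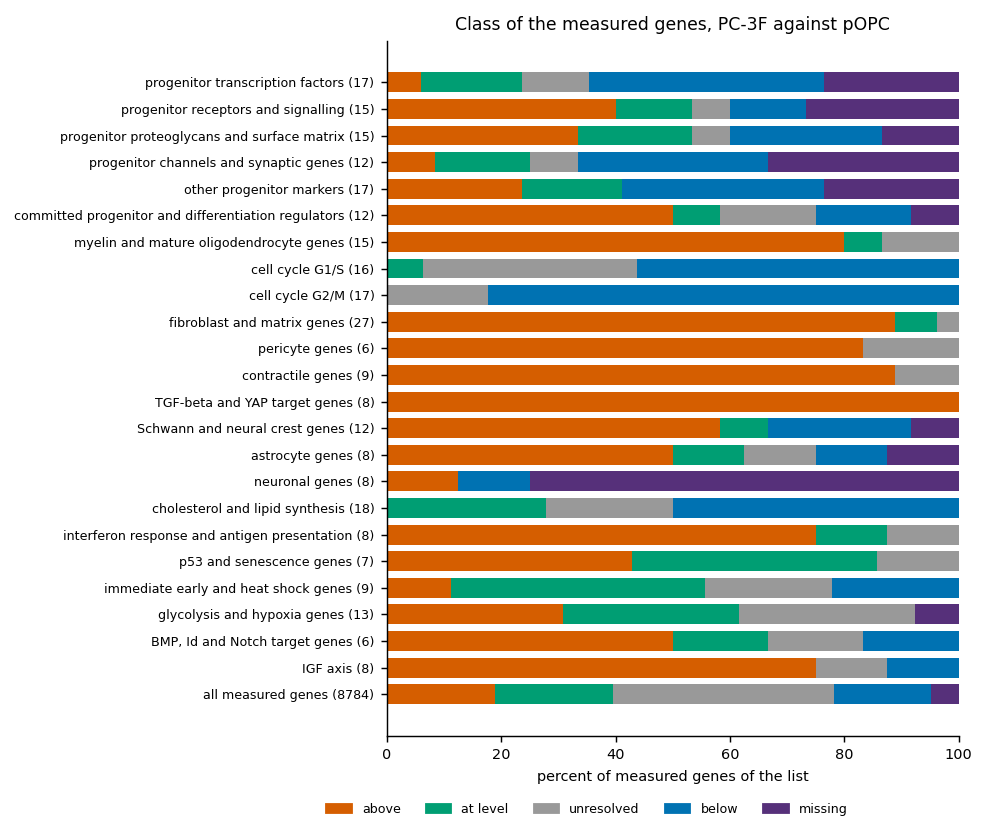
Percent of the measured genes of each list (number in brackets) that were above, at level, unresolved, below or missing in PC-3F against pOPC, with all 8784 measured genes in the last bar. Myelin, fibroblast and contractile lists are mostly above, cell cycle and neuronal lists mostly below or missing.

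Most cell division genes were lower. Of 16 measured G1/S genes 9 were below and 0 above (median -1.14), and of 17 G2/M genes 14 were below and 0 above (median -1.41), against 21.8% lower over all genes. Top2a, the topoisomerase of dividing cells, was at 978 CPM in pOPC, 466 CPM in PC-3F and 285 CPM in PC (2.099-fold lower, 1.82 to 2.42). Mki67, the proliferation marker, was 3.02-fold lower (2.33 to 3.97), the mitotic cyclin gene Ccnb1 4.85-fold lower (3.76 to 6.33) and the ribonucleotide reductase gene Rrm2 4.49-fold lower (3.505 to 5.82). Top2a and Mki67 were named as common markers of division after their values were seen. Division genes were among the leading genes of the second PC-3F cluster, and in the third cluster alone the G2/M median was -4.30 and the G1/S median -1.57. At 1000 UMIs a pOPC cell showed a median of 8 of 35 cell cycle genes and a PC-3F cell 2.

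Mesenchymal genes formed the other end of the comparison. Of 27 measured fibroblast and matrix genes 24 were above pOPC, 2 at level, 1 unresolved and 0 below, with a median of 7.72 (5.38 with absent genes set at 3 UMIs, 6.58 without the first PC-3F cluster). Over all genes 19.0% were higher. Many of the 27 passed the minimum through PC-3F alone, since only 5 of them were measured in pOPC. Col1a2, a type I collagen gene, had 1 UMI in pOPC and 2637 in PC-3F (4152 CPM), against 2792 CPM in PC. Fn1, the fibronectin gene, had 2 and 3941 UMIs, Sparc, a matrix glycoprotein gene, 0 and 3506 (at least 1164-fold higher), and Postn, the periostin gene, 0 and 1006 (at least 334-fold higher). Sparc was at 2846 CPM in PC and 5521 CPM in PC-3F, Fn1 at 676 CPM and 6206 CPM, and Postn at 10.1 CPM and 1584 CPM. The PC-3F levels of Fn1 and Postn were thus not ones that the donor library already had. All 4 were found in each cluster of PC-3F, with Fn1 at 6775 CPM, 5544 CPM and 6607 CPM in turn, and Col1a2 and Postn highest in the second, Col1a2 at 2738 CPM, 7218 CPM and 1431 CPM and Postn at 738 CPM, 2458 CPM and 1119 CPM. Dcn, the decorin gene, was instead at 1954 CPM in the first cluster and at 11.4 CPM and 4.59 CPM in the others, and Pdgfrb, the pericyte receptor gene, at 523 CPM, 7.57 CPM and 0 CPM.

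Of 6 measured pericyte genes 5 were above, of 9 contractile genes 8, and of 8 TGF-beta and YAP target genes 8, against 19.0% of all genes. Only 2, 5 and 2 of them were measured in pOPC, and the others passed the minimum only by being high in PC-3F. Mcam, an adhesion gene of mural cells, was 14.01-fold higher (8.56 to 24.4) but at 7.74 CPM in PC, and the transcription factor genes Foxc1 and Tbx18 were at least 27.2-fold higher and at least 5.31-fold higher. Ctgf and Cyr61, matricellular target genes of YAP, were at 1496 CPM and 405 CPM in PC-3F, against 0 and 3 UMIs in pOPC. Myl9 and Acta2, contractile protein genes, had 0 UMIs in pOPC and were at least 31.5-fold higher and at least 8.97-fold higher.

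Genes of other neural types also differed. Of 8 measured neuronal genes 6 were missing, 1 below and 1 above. All 8 were measured in pOPC, and of all genes measured there 5.69% were missing. Nsg2, Elavl4, Dcx and Elavl3 had 175, 67, 57 and 43 UMIs in pOPC and 0 in PC-3F. As 128 of the 134 pOPC cells fell into 1 cluster, the clusters could not set neuronal cells apart, and whether these UMIs belong to the progenitors was not tested. Tubb3 was 3.05-fold higher (1.67 to 5.89) over all PC-3F cells but had a log2 ratio of -0.47 without the first PC-3F cluster. Of 8 measured astrocyte genes 4 were above, 1 at level, 1 unresolved, 1 below and 1 missing, with the glutamate transporter genes Slc1a2 (at least 10.7-fold lower) and Slc1a3 (9.57-fold lower, 5.398 to 18.5) lower and the connexin gene Gja1 (at least 49.8-fold higher) higher. Over all genes 19.0% were higher and 21.8% lower or missing. Only 6 of these 8 were measured in pOPC, and the others, Gja1 among them, passed the minimum only by being high in PC-3F. None of the 12 microglial, 8 endothelial and 5 keratin or mesothelial genes in the files was measured.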

How the data were processed

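The deposited values per gene and barcode are of an unnamed kind: codes that do not rise with abundance. Per the submitters' processing notes, STAR 2.5.3a, featureCounts 1.6.1 of Subread, UMI-tools 0.5.3, bcl2fastq 2.19.1.403 and mm10 were used, with no role or order given. From the values, each code was read as the place of a UMI count in a text-sorted list of the counts that occur. The counts were decoded by that rule, an inference that, if right, makes 97.83% of UMIs in pOPC and 97.99% in PC-3F certain at a probability over 0.99, while counts of 60 or more (pOPC) and 100 or more (PC-3F) in 1 cell can be uncertain. For each code, the UMIs expected from a gene's decoded level in other cells and the cell's depth were also taken. Their rank correlation with the decoded count was 0.989 in pOPC but 0.665 in PC-3F, against -0.224 and -0.035 with the raw code. The design had assumed plain UMI counts. A gene absent from a file was taken as 0 UMIs.

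Barcodes with 500 or more UMIs and under 20% mitochondrial UMIs were kept, and no doublet caller was run. Each gene's UMIs were summed per library and given as CPM with exact Poisson intervals, ratios with conditional binomial intervals, and log2 ratios with 0.5 UMIs added per library. Intervals are at 95% and cover counting error only. With 1 library per group no test was possible. Cells of each library were clustered (Ward linkage on 10 principal components of 1500 variable genes, 3 clusters, settings chosen after seeing the data). Shares expected at 1000 UMIs, and the setting without the first PC-3F cluster, were also added after seeing the data. Named were the virally delivered factors, measured progenitor and oligodendrocyte genes, for other lists the 4 with the largest ratios and cell type markers, and the 12 highest and 12 lowest of all genes at 100 CPM and 30 UMIs or more. Members and lists were chosen with earlier results of these data known. Some genes are not reported here by name but stay in the counts. Alternatives covered the cell filters, scaling, thinning, capping, clusters, minimum, added value and fold. PC-2F and PC are set beside the comparison, which shares pOPC with theirs. Used were python 3.11.15, numpy 2.4.6, scipy 1.17.1, pandas 2.3.3, scikit-learn 1.9.0 and matplotlib 3.10.9. The calculations were tested on simulated data.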

Additional observations from a re-analysis of the deposited data

How the results depend on the processing

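With 1 library per group no replicate could be left out. No paired analysis was possible because each group holds 1 library. Scaling by trimmed means moved the median log2 ratio of all genes by 0.229, from -0.22 to 0.01, and the split from 1665 higher and 1918 lower to 1978 and 1459. The progenitor median ranged from -1.62 (56 PC-3F cells of the third cluster) to -0.84 (shares of cells). Over 15 alternatives, 6 of the 17 progenitor genes above, 5 of 13 at level, 9 of 23 below and 8 of 18 missing kept their class in each. Of 120 recomputed counts 104 lay within 1.5 times the reported one, and 355 of 360 list medians stayed between ranks set around the median of the list's own genes. These ranks lay far apart for some lists, at -5.82 and 4.75 for receptors and -6.03 and 8.23 for astrocyte genes. For such lists a median between them need not be near the reported one. With the mean CPM per cell, 8 progenitor genes were unresolved. With cells thinned to 1000 UMIs, 5 progenitor genes were at level and 9 unresolved, 816 of all genes were higher and 852 lower, and the G2/M median was -1.75. By shares of cells, 9 progenitor genes were above and 17 unresolved, and the fibroblast median was 5.54. In the third cluster alone 10 progenitor genes were unresolved, the G1/S median was -1.57 and the G2/M median -4.30. With a minimum of 100 CPM, 9 progenitor genes were missing, 2 unresolved, 650 of all genes higher and 712 lower, as fewer genes were measured. Adding 5 CPM gave a fibroblast median of 5.30. At 4-fold, 15 progenitor genes were below and 18 unresolved, and 916 of all genes were higher and 625 lower. Direction turned for Etv4 (-1.07) and Fa2h (-0.33) on thinning, Cldn11 (-0.036) by shares, Opcml (-0.0086) in the third cluster and Tubb3 (-0.47) without the first; the cause was not tested. Leaving out pOPC clusters with more neuronal than progenitor markers gave no value, since there was none among clusters of 2, 4 and 128 cells. At 635075 and 632652 UMIs, a gene with 0 UMIs may lie at up to 4.72 CPM in PC-3F or 4.74 CPM in pOPC, and 3399 genes could not be resolved at this depth.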

Other observations

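Metabolic and signalling lists were chosen like the others with earlier results of these data known. Of 18 measured cholesterol and lipid synthesis genes 9 were below pOPC, 5 at level, 4 unresolved and 0 above (median log2 ratio -0.996). All 18 were measured in pOPC, and of all genes measured there 26.0% were lower or missing. Hmgcs1, which encodes an early enzyme of the pathway, was at 1438 CPM in pOPC and 291 CPM in PC-3F (4.94-fold lower, 4.21 to 5.82). Of 8 measured interferon and antigen presentation genes 6 were above, 1 was at level and 1 unresolved (median 2.82), but only 3 of the 8 were measured in pOPC and the others passed the minimum only by being high in PC-3F, and 19.0% of all genes were higher. B2m, the light chain gene of class I major histocompatibility molecules, was 10.8-fold higher (8.63 to 13.6), and Ifitm3, an antiviral membrane protein gene, had 0 UMIs in pOPC and 307 in PC-3F (at least 102-fold higher). PC held Ifitm3 at 206 CPM, and the part of viral transduction was not tested.

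Of 8 measured genes of the insulin-like growth factor axis 6 were above, 1 unresolved and 1 below, and 5 were measured in pOPC. Over all genes 19.0% were higher and 21.8% lower or missing. Genes of this list and the next ones that were not measured in pOPC passed the minimum only through PC-3F. Igfbp3 was 27.8-fold lower (12.5 to 76.8) while Igfbp5 was at least 11.95-fold higher and Igfbp7 369.6-fold higher (102 to 3057); all encode binding proteins of these growth factors. Of 6 measured BMP, Id and Notch target genes 3 were above, 1 at level, 1 unresolved and 1 below, and 3 were measured in pOPC. Id1 was at least 16.6-fold higher, Id3 15.4-fold higher (7.597 to 36.6) and Hes1 16.1-fold higher (7.55 to 40.9). Immediate early and heat shock genes (1 above, 4 at level, 2 unresolved and 2 below of 9), glycolysis and hypoxia genes (4, 4, 4 and 0, with 1 missing, of 13) and p53 and senescence genes (3, 3, 1 and 0 of 7) had medians of -0.19, -0.19 and 0.13, beside -0.22 for all genes. Scaling by trimmed means turned the first and second to 0.04 and 0.04, beside 0.01 for all genes on that scale. Without the first PC-3F cluster the p53 median was -0.11, beside -0.23 for all genes.

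By the rule for all genes, the 12 furthest above pOPC were Trf, Sparc, Serpina3n, Mgp, Postn, Ctgf, Col1a2, Col3a1, Fn1, Pcolce, Serpinh1 and Cp. Of these, Serpina3n, a protease inhibitor gene, was at least 552-fold higher and Mgp, the matrix Gla protein gene, at least 460.2-fold higher. The 12 furthest below were Cntn1, Gpm6a, Sall3, Gria2, Prkcb, Nap1l5, Ntrk2, Pou3f3, Nsg2, Tub, Gng3 and Dner. Of these, Prkcb, a protein kinase C gene, was at least 73.6-fold lower, Pou3f3, a POU factor gene of neural cells, at least 63.2-fold lower, and the zinc finger gene Sall3 at least 109.8-fold lower.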
